A study of Homo sapiens with 6 samples.

Results

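The ATP-binding cassette (ABC) genes of OVCAR-3 cells were taken as the rows of the count table whose symbol consists of ABC, a subfamily letter from A to G and a number, with ABCC4 left out by the rule. This gave 45 of the 34811 genes in the table. OVCAR-3 is an established cell line derived from a human ovarian carcinoma. Control OV3/SCR cells carried a scrambled shRNA and OV3/COX1KD cells an shRNA against COX-1, both delivered on the pRS HuSH-29 plasmid, and both lines had been kept under puromycin selection. RNA-seq was performed on 3 independent passages of each line, harvested as subconfluent monolayers in RPMI-1640 medium with 10% serum. Each line was 1 clone, so effects of the clone and of the knockdown cannot be told apart, and p-values measure the spread between passages of a clone.

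ABC proteins bind and hydrolyse ATP through a pair of conserved cytoplasmic domains, and most of them use that energy to move a substrate across a membrane. Subfamilies A and G mainly carry sterols and phospholipids, subfamilies B and C include the exporters known for resistance of tumors to chemotherapy, and subfamily D serves peroxisomes and lysosomes. The proteins of subfamilies E and F lack membrane-spanning parts and work on the ribosome, and they are members here by symbol, not as transporters. In ovarian carcinoma the family is best known for the efflux of taxanes and of glutathione conjugates.

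Each library held between 25291505 and 27391538 counts on genes, at which 3 counts, the smallest level taken as detectable, correspond to between 0.113 and 0.120 CPM (read counts relative to the library total after adjustment by the TMM factors of edgeR). This floor covers counting error only. The 45 ABC genes together took between 0.141% and 0.143% of the counts in OV3/SCR libraries and between 0.129% and 0.134% in OV3/COX1KD libraries. The targeted gene PTGS1, which encodes COX-1, had 641 to 713 counts per OV3/SCR library and 456 to 501 per OV3/COX1KD library, a log2 fold change of -0.45 (standard error, SE, 0.057; edgeR FDR = 1.3e-06). All 8 markers listed for serous carcinoma epithelium had a mean level of 99.3 CPM or more in each line, the 4 leukocyte markers summed to at most 0.998 CPM in any library, and the 2 endothelial markers found in the table summed to at most 1.95 CPM. The 4 fibroblast markers summed to between 10.5 and 11.2 CPM in OV3/SCR and between 6.01 and 7.10 CPM in OV3/COX1KD libraries, most of it COL1A1, and their part in the results was not tested. OV3/COX1KD replicate 2 stood apart from its line: its counts differed from those of replicates 1 and 3 by 4.81 and 6.28 in chi-square per degree of freedom, while replicates 1 and 3 differed by 1.89 and the OV3/SCR pairs by 1.82 to 3.18.

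ABC genes were changed in both directions in OV3/COX1KD compared to OV3/SCR cells. The largest rises were those of ABCB5 and ABCA2, by 3.90-fold and 3.21-fold, and the largest falls those of ABCC3 and ABCB6, to levels 3.17-fold and 2.55-fold lower. Of the 45 genes, 31 passed the filter on low counts and were tested with the quasi-likelihood method of edgeR, the FDR being adjusted after Benjamini and Hochberg over all 17309 tested genes. At an FDR under 0.01, 15 of the 31 (48.4%) were called, 5 higher and 10 lower in OV3/COX1KD cells. Over all tested genes the share called was 47.9%, with 25.8% called higher and 22.1% called lower, so the share of ABC genes called was near the background. When libraries were scaled by total counts instead of TMM, the split became 4 higher and 15 lower, and that over all genes moved from 4473 higher and 3820 lower to 3466 higher and 4978 lower. Without OV3/COX1KD replicate 2 the genes called rose from 8293 to 8989 over all genes, and the ABC genes called were 6 higher and 11 lower among 33 tested. In RNA from whole cultures, fewer cells with a transcript and less of it per cell cannot be told apart.

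With an added log2 fold change beyond 0.5, 8 of the 31 tested ABC genes were called, ABCA1, ABCA2, ABCA3 and ABCB5 higher and ABCA7, ABCB6, ABCC3 and ABCC5 lower. The corresponding share over all tested genes was 19.9%, made of 9.87% higher and 10.0% lower. A fold change above 2.5 at the same FDR was reached by 4 ABC genes, ABCA2, ABCB5, ABCB6 and ABCC3, against 3.92% of all tested genes. In 21 of the 31 tested ABC genes the libraries of the 2 lines did not overlap, against 63.2% of all tested genes. The median log2 fold change of the tested ABC genes was -0.16, and over all tested genes it was -0.0087, while the median size of the log2 fold change was 0.27 and 0.28. All 8 calls past a log2 fold change of 0.5 held in each of the 13 fits made, which differed in scaling, filter, test, replicate block or the libraries included.

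**Figure D1:**
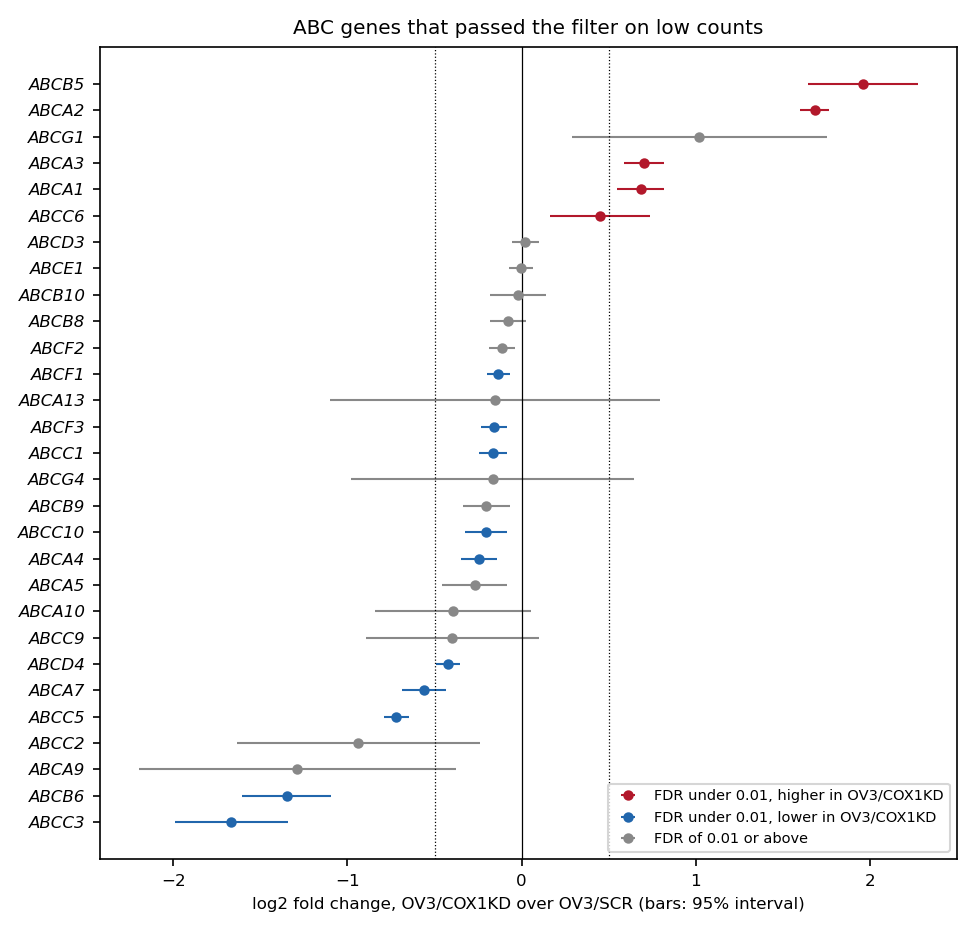
The log2 fold change of the tested ABC genes reported singly, OV3/COX1KD over OV3/SCR, is drawn as a point with its 95% interval, ordered by size, red where called higher and blue where called lower at an edgeR FDR under 0.01. The points run from ABCC3 at -1.67 to ABCB5 at 1.96, and dotted lines mark log2 fold changes of -0.5 and 0.5.

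Promoters are printed for the 2 largest rises and the 2 largest falls among called genes with an entry in the RefSeq promoter table (GRCh38.p14), so that the start regions of genes that moved in opposite directions can be compared. Of the 45 ABC genes 34 had an entry, and ABCB5 and ABCC3 had none. Each sequence is the 250 bases upstream of the gene's start, 5′ to 3′ on the gene's strand, which is the minus strand for all 4. Capitals mark motifs found on either strand. The letters searched were GGGCGG for the GC box. For the CCAAT box the search used the letters of its name. The TATA box was searched as TATAAA. An E-box was taken as CACGTG.
ABCA2 (chr9:137028923-137029172): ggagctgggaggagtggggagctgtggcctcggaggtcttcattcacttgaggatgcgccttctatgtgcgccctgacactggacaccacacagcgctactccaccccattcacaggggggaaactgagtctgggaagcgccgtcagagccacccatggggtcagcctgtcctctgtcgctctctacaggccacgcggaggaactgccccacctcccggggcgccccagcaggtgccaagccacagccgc
ABCA3 (chr16:2340729-2340978): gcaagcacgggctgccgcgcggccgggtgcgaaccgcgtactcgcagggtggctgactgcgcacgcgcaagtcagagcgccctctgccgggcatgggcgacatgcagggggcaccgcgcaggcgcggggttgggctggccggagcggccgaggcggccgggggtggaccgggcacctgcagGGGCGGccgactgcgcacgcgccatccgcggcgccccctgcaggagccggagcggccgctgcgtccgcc
ABCB6 (chr2:219218959-219219208): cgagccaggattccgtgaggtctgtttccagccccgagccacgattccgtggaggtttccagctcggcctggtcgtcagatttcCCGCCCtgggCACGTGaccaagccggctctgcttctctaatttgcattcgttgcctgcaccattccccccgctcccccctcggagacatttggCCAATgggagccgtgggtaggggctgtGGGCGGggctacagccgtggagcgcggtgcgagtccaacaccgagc
ABCC5 (chr3:184017885-184018134): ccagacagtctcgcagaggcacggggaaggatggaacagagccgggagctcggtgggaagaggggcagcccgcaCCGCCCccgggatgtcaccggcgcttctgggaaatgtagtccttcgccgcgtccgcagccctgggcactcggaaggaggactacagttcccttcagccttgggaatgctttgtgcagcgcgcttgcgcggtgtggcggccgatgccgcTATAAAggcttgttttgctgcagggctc
The ABCA2 window held none of the 4 motifs and the ABCA3 window held 1 GC box. The ABCB6 window held 2 GC boxes, 1 CCAAT box and 1 E-box, and the ABCC5 window held 1 GC box and 1 TATA box. Among the 34 ABC genes with an entry, 18 had a GC box, 6 a CCAAT box, 5 a TATA box and 4 an E-box, while of all 35116 promoters of that length 42.6% had a GC box, 32% a CCAAT box, 10.7% a TATA box and 6.34% an E-box. The GC content was 65.2% for ABCA2, 79.2% for ABCA3, 64.4% for ABCB6 and 64.8% for ABCC5, against a median of 58% over all promoters. A match is a description of these letters and not evidence of a factor bound there.

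Of the 7 genes for exporters of lipid at the cell surface, 4 were tested, and ABCA1 rose while ABCA7 fell. ABCA1 (ENSG00000165029, chromosome 9 of GRCh37 from 107543287 to 107690436) passes cholesterol and phospholipid to apolipoprotein A-I and is a classic target of the liver X receptors (LXR). It was counted 576, 625 and 564 times in OV3/SCR replicates 1 to 3 and 990, 823 and 961 times in OV3/COX1KD replicates 1 to 3. All OV3/COX1KD libraries lay above all OV3/SCR libraries, with replicate 2 the lowest of them. The level was 22.5 ± 1.32 CPM (SD, n = 3) in OV3/SCR and 36.1 ± 3.25 CPM in OV3/COX1KD cells (log2 fold change 0.68, SE 0.064, edgeR FDR = 1.9e-08).

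ABCA7 (ENSG00000064687, chromosome 19 from 1039996 to 1065571), the closest relative of ABCA1, is a phospholipid transporter linked to phagocytosis. Its counts were 595, 643 and 606 in OV3/SCR and 401, 403 and 418 in OV3/COX1KD replicates. The OV3/COX1KD libraries were close to each other and below every OV3/SCR library. Its level was 23.5 ± 1.18 CPM (SD, n = 3) in OV3/SCR and 15.9 ± 0.198 CPM in OV3/COX1KD cells (log2 fold change -0.56, SE 0.060, edgeR FDR = 1.2e-07). Per kilobase of exon, ABCA7 stood above ABCA1 in OV3/SCR cells, at 2.45 and 1.98 RPKM (CPM per kb of the union of exons), and below it in OV3/COX1KD cells, at 1.66 and 3.18 RPKM.

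ABCG1 and ABCG4, which load cholesterol onto high-density lipoprotein, were scarce. For ABCG1 the counts were 9, 8 and 13 in OV3/SCR and 12, 25 and 23 in OV3/COX1KD replicates, which overlap, and its log2 fold change of 1.02 (95% interval 0.29 to 1.75) had an edgeR FDR of 0.0170. ABCG1 was called in 2 of the 12 fits in which it was tested. These were the fit without OV3/COX1KD replicate 1, the library that overlaps the controls (edgeR FDR = 0.00445), and that with no filter on low counts (0.00800). It was not called in DESeq2 (adjusted p = 0.0576) or, among others, without OV3/SCR replicate 2 (edgeR FDR = 0.0718). ABCG4 had 7 to 19 counts in each library, with a log2 fold change of -0.17 (95% interval -0.98 to 0.65). The remaining 3 genes did not pass the filter. ABCB4, the phosphatidylcholine exporter of bile canaliculi, had 6, 4 and 8 counts in OV3/SCR and 3, 2 and 2 in OV3/COX1KD replicates, and ABCG5 and ABCG8, partner subunits of the sterol exporter of gut and liver, had at most 1 count in any library.

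All 5 genes for transporters of lysosomes and related organelles were tested, and ABCA2 and ABCA3 rose while ABCD4 fell. ABCA2 (ENSG00000107331, chromosome 9 from 139901686 to 139923367) encodes a late endosomal and lysosomal protein tied to sterol and sphingolipid handling, most abundant in brain. Its counts were 1142, 1165 and 1086 in OV3/SCR and 3632, 3348 and 3682 in OV3/COX1KD replicates. The 2 lines were far apart, and the spread within each was narrow. The level rose from 43.2 ± 1.38 CPM (SD, n = 3) to 139 ± 5.37 CPM (log2 fold change 1.68, SE 0.040, edgeR FDR = 2.5e-17), and the log2 fold change ranged from 1.61 to 1.72 over the 13 fits. Per kilobase of exon, ABCA2 went from 3.76 to 12.1 RPKM, from rank 12 to rank 6 among the 45 genes.

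ABCA3 (ENSG00000167972, chromosome 16 from 2325882 to 2390747) loads surfactant lipid into the lamellar bodies of lung epithelium. It was counted 578, 599 and 613 times in OV3/SCR and 970, 867 and 1014 times in OV3/COX1KD replicates, again with no overlap. Its level went from 22.8 ± 1.03 CPM (SD, n = 3) to 37.1 ± 2.15 CPM (log2 fold change 0.70, SE 0.056, edgeR FDR = 1.7e-09).

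ABCD4 moves cobalamin, vitamin B12, out of lysosomes together with LMBRD1. It had 3821, 3752 and 3753 counts in OV3/SCR and 2677, 2810 and 2778 in OV3/COX1KD replicates, all of the latter lower. The log2 fold change was -0.42 (SE 0.034, edgeR FDR = 2.1e-09), smaller than the limit of 0.5 although precisely measured. The other two genes of this group did not pass the threshold, with log2 fold changes of -0.27 (95% interval -0.46 to -0.08, edgeR FDR = 0.0144) for ABCA5 and -0.20 (95% interval -0.34 to -0.07, edgeR FDR = 0.0105) for ABCB9, which carries peptides into lysosomes. ABCB9 lay next to the threshold and passed it in 4 of the 12 other fits, among them that without OV3/SCR replicate 2 (edgeR FDR = 0.00822), and exons of other genes cover 24.6% of its exon length.

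**Figure D2:**
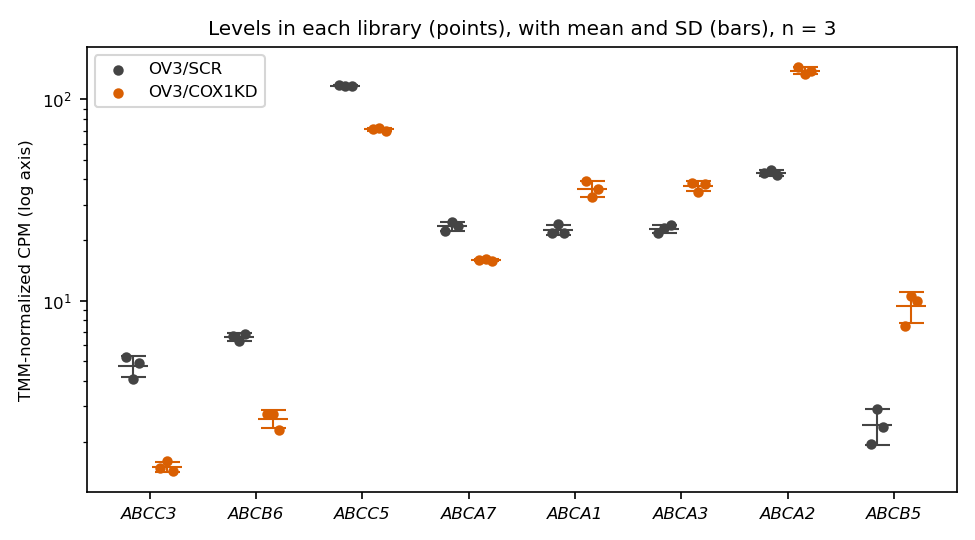
Each point is the TMM-normalized CPM of 1 library on a log axis for the 8 ABC genes called with a log2 fold change beyond 0.5, with bars for the mean and SD of the 3 libraries of OV3/SCR (grey) and of OV3/COX1KD (orange). For ABCA2 the OV3/COX1KD points sit between 134 and 144 CPM and the OV3/SCR points between 42.0 and 44.7 CPM. The lines overlap in none of the 8 genes, which were chosen for their change in these same libraries. Of all tested genes 63.2% show no overlap.

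Of the exporters of drugs and organic anions, 6 of 7 tested genes were called, 2 higher and 4 lower, against 47.9% of all tested genes, and 5 of the 12 genes of the group were too scarce to test. Past a log2 fold change of 0.5 the number was 3 of 7, against 19.9%. The grouping was made after counts were seen, and 2 of the 6 calls, those of ABCC6 and ABCC10, were lost in DESeq2 and in most of the other fits. ABCB5 (ENSG00000004846, chromosome 7 from 20655290 to 20816658), a transporter best known from melanoma and from limbal stem cells of the cornea, had 52, 76 and 61 counts in OV3/SCR and 189, 266 and 267 in OV3/COX1KD replicates. Replicate 1 was the lowest library of each line, and still the highest control library was far below the lowest knockdown library. Its level went from 2.41 ± 0.485 CPM (SD, n = 3) to 9.38 ± 1.65 CPM (log2 fold change 1.96, SE 0.15, edgeR FDR = 1.0e-09). Per kilobase it stayed modest, at 0.274 RPKM in OV3/SCR and 1.07 RPKM in OV3/COX1KD cells.

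ABCC3 (ENSG00000108846, chromosome 17 from 48712138 to 48769614), or MRP3, exports glucuronides and bile salts across the basolateral membrane. It was counted 140, 107 and 127 times in OV3/SCR and 37, 40 and 38 times in OV3/COX1KD replicates. The knockdown libraries were nearly equal and well below the controls. The level was 4.76 ± 0.589 CPM (SD, n = 3) in OV3/SCR cells and between 1.43 and 1.60 CPM in the OV3/COX1KD libraries (log2 fold change -1.67, SE 0.16, edgeR FDR = 1.8e-08).

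ABCC5 (ENSG00000114770, chromosome 3 from 183637722 to 183735727), or MRP5, exports cyclic nucleotides and nucleotide analogs. With 3131, 3040 and 3024 counts in OV3/SCR and 1791, 1810 and 1863 in OV3/COX1KD replicates, it was the most deeply counted gene among those past a log2 fold change of 0.5 in control cells. The libraries of each line were tightly grouped and did not overlap. The log2 fold change was -0.72 (SE 0.034, edgeR FDR = 5.6e-13), from 117 ± 0.400 CPM (SD, n = 3) to 71.1 ± 1.15 CPM.

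ABCC1 and ABCC10 fell by less. ABCC1, or MRP1, the exporter of leukotriene C4 and glutathione conjugates, was counted 6132, 6336 and 6417 times in OV3/SCR and 5640, 5060 and 5789 times in OV3/COX1KD replicates, and its log2 fold change was -0.17 (SE 0.038, edgeR FDR = 9.3e-04). The call of ABCC1 was lost without OV3/SCR replicate 2 (edgeR FDR = 0.0106) or replicate 3 (edgeR FDR = 0.0166). ABCC10, or MRP7, which carries taxanes, had a log2 fold change of -0.21 (SE 0.058, edgeR FDR = 0.00468) with 545 to 609 counts in OV3/SCR and 472 to 515 in OV3/COX1KD libraries. Its call was lost without OV3/SCR replicate 1 (edgeR FDR = 0.0276) or 2 (0.0243), or OV3/COX1KD replicate 1 (0.0103), 2 (0.0123) or 3 (0.0139), and with no filter (0.0172) or in DESeq2 (adjusted p = 0.0193).

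ABCC6, a liver and kidney protein needed for the release of ATP, had 76, 63 and 74 counts in OV3/SCR and 91, 93 and 101 in OV3/COX1KD replicates (log2 fold change 0.45, SE 0.14, edgeR FDR = 0.00791). The lines did not overlap, but the call was lost in 9 of the 12 other fits, with an edgeR FDR of 0.0112 in the replicate block and of 0.0146, 0.0424 and 0.0151 without OV3/SCR replicate 1, 2 or 3 and 0.0158 and 0.0259 without OV3/COX1KD replicate 1 or 3. Of the 50-base stretches of its longest transcript, 17.1% also occur in another gene, most of them in the pseudogene ABCC6P1. ABCC6P1, named after its values were seen, was counted 37, 43 and 53 times in OV3/SCR and 21, 20 and 16 times in OV3/COX1KD replicates (log2 fold change -1.19, SE 0.24, edgeR FDR = 2.9e-04). How reads were divided between ABCC6 and this copy was not tested.

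ABCC2, or MRP2, the apical counterpart of ABCC3, had 18, 21 and 20 counts in OV3/SCR and 6, 9 and 15 in OV3/COX1KD replicates, without overlap. Its log2 fold change of -0.94 (95% interval -1.63 to -0.24) did not pass the threshold (edgeR FDR = 0.0210). ABCC2 was called in 1 of the 12 fits in which it was tested, that without OV3/COX1KD replicate 3 (edgeR FDR = 0.00834). In DESeq2 its adjusted p was 0.0748. Of the exporters most often studied in drug resistance, ABCB1 and ABCG2 were close to the detection floor, while ABCC1 had 5060 to 6417 counts per library. ABCB1, or P-glycoprotein, had 4, 0 and 2 counts in OV3/SCR and 0, 3 and 3 in OV3/COX1KD replicates, and ABCG2, or BCRP, had 3, 9 and 6 and then 4, 2 and 4. Neither passed the filter, and without a filter the edgeR FDR was 0.986 for ABCB1 and 0.416 for ABCG2, so no difference was detected in either. Of the others, ABCC11 had at most 4 counts in any library, and ABCB11, the bile salt export pump, and ABCC12 had at most 1.

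Among the genes for mitochondrial and porphyrin transporters, ABCB6 was called lower. ABCB6 (ENSG00000115657, chromosome 2 from 220074494 to 220083716), which carries porphyrins, had 179, 164 and 176 counts in OV3/SCR and 69, 69 and 61 in OV3/COX1KD replicates. The lines did not overlap, and the spread in each was small. Its level fell from 6.61 ± 0.274 CPM (SD, n = 3) to 2.59 ± 0.264 CPM (log2 fold change -1.35, SE 0.12, edgeR FDR = 1.2e-08). In GENCODE 44 exons of ENSG00000284820, a gene on the same strand that the count table does not list, cover 54.6% of the exon length of ABCB6. ABCB8 and ABCB10, both of the inner mitochondrial membrane, had log2 fold changes of -0.079 (95% interval -0.18 to 0.02) and -0.022 (95% interval -0.18 to 0.14).

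For the peroxisomal importer ABCD3 no difference was detected, and the interval was narrow. ABCD3, which imports branched-chain acids and bile acid precursors, had a log2 fold change of 0.021 (95% interval -0.06 to 0.10) with 1976 to 2254 counts in each library. ABCD2, its relative, had 1 count in 1 library.

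The soluble proteins of the ribosome were among the most abundant members. ABCE1, which splits ribosomes after termination, had 4487, 4222 and 4378 counts in OV3/SCR and 4227, 4051 and 4506 in OV3/COX1KD replicates, and its log2 fold change was -0.0027 (95% interval -0.07 to 0.06). ABCF1, which assists translation initiation, and ABCF3 were called lower, with log2 fold changes of -0.13 (SE 0.032, edgeR FDR = 0.00132) and -0.16 (SE 0.037, edgeR FDR = 9.97e-04). The call of ABCF1 was lost without OV3/SCR replicate 3 (edgeR FDR = 0.0150) and with no filter (edgeR FDR = 0.0131), and without OV3/COX1KD replicate 1 the FDR lay just above the threshold, at 0.01002. ABCF2 had a log2 fold change of -0.11 (95% interval -0.18 to -0.04, edgeR FDR = 0.0121), and an annotated readthrough gene, ABCF2-H2BK1, covers 37.1% of its exon length. These differences were small, with OV3/COX1KD levels between 89.6% and 92.7% of the OV3/SCR levels. The libraries of the 2 lines did not overlap for any of the 3 ABCF genes, as was so for 63.2% of all tested genes.

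ABCA4, the retinoid flippase of photoreceptors, had the highest level per kilobase of exon of subfamily A in OV3/SCR cells, 4.89 RPKM against 3.76 RPKM for ABCA2, and was called lower. In CPM the order was the other way, with 41.8 CPM for ABCA4 and 43.2 CPM for ABCA2. Its counts were 1098, 1069 and 1113 in OV3/SCR and 910, 824 and 979 in OV3/COX1KD replicates, without overlap, and the log2 fold change was -0.24 (SE 0.050, edgeR FDR = 3.1e-04). The genes of the ABCA5-related cluster on chromosome 17 were scarce apart from ABCA5 itself. ABCA9 had 21, 15 and 12 counts in OV3/SCR and 2, 11 and 6 in OV3/COX1KD replicates, and its log2 fold change of -1.29 (95% interval -2.20 to -0.38) had an edgeR FDR of 0.0157. Without OV3/COX1KD replicate 2 the log2 fold change of ABCA9 was -1.95 (edgeR FDR = 8.5e-04), and without replicate 1 it was -0.88 (edgeR FDR = 0.0940). ABCA9 was called in 3 of the 12 fits in which it was tested. ABCA10, with 25 to 48 counts in each library, had a log2 fold change of -0.39 (95% interval -0.84 to 0.05), and ABCA6 and ABCA8 had at most 15 and 8 counts. ABCA12, the lipid transporter of the epidermis, had 5 to 11 counts in each library, and ABCA13 had 3 to 17 counts and a log2 fold change of -0.15 (95% interval -1.10 to 0.80).

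ABCC8 and ABCC9 encode the sulfonylurea receptors, which regulate potassium channels and are not known to transport. ABCC9 had 48, 47 and 36 counts in OV3/SCR and 36, 40 and 21 in OV3/COX1KD replicates, which overlap, with a log2 fold change of -0.40 (95% interval -0.89 to 0.10). ABCC8 had at most 4 counts. ABCC13, annotated as a pseudogene, was counted 17, 11 and 9 times in OV3/SCR and 2, 3 and 5 times in OV3/COX1KD replicates. It did not pass the filter, and without a filter its log2 fold change was -1.80 (edgeR FDR = 0.00182). That FDR, like the others given without a filter, is not equivalent to those of the fit with the filter, because the 2 fits differ in scale. Calls gained or lost with no filter carry the same limit. For ABCA1 the edgeR FDR was 2.5e-33 without the filter and 1.9e-08 with it, while for ABCF1 it was 0.0131 and 0.00132. Exons of another entry named ABCC13, on the same strand and absent from the count table, cover 55.8% of its exon length.

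In level per kilobase of exon, ABCF1 led in OV3/SCR cells with 30.4 ± 0.503 RPKM (SD, n = 3), followed by ABCC1 with 27.5 ± 1.07, ABCE1 with 26.6 ± 0.635, ABCD4 with 16.2 ± 0.105 and ABCF2 with 16.1 ± 0.336 RPKM. The ranges of ABCC1 and ABCE1 overlapped, as did those of ABCD4 and ABCF2, so their order was not resolved. ABCF3, ABCD3 and ABCC5 came next, at 14.4, 10.5 and 10.3 RPKM, each apart from its neighbors in this order. From ABCA4, at 4.89 RPKM, the levels ran down through the remaining genes, and from ABCA10, at 0.190 RPKM, each range overlapped the next. The highest gene of subfamily G was ABCG4 at 0.0799 RPKM, so no gene of that subfamily reached the level of any member of subfamilies E and F. When the longest transcript replaced the union of exons as the length, ABCD4 came first at 47.5 RPKM, then ABCE1 at 42.9, ABCF1 at 40.0 and ABCC1 at 36.5 RPKM, and the leading gene was the same in all 7 subfamilies. By that length ABCC5, at 20.0 RPKM, stood above ABCD3, at 18.4 RPKM, and ABCF2 moved from rank 5 to rank 8.

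**Figure D3:**
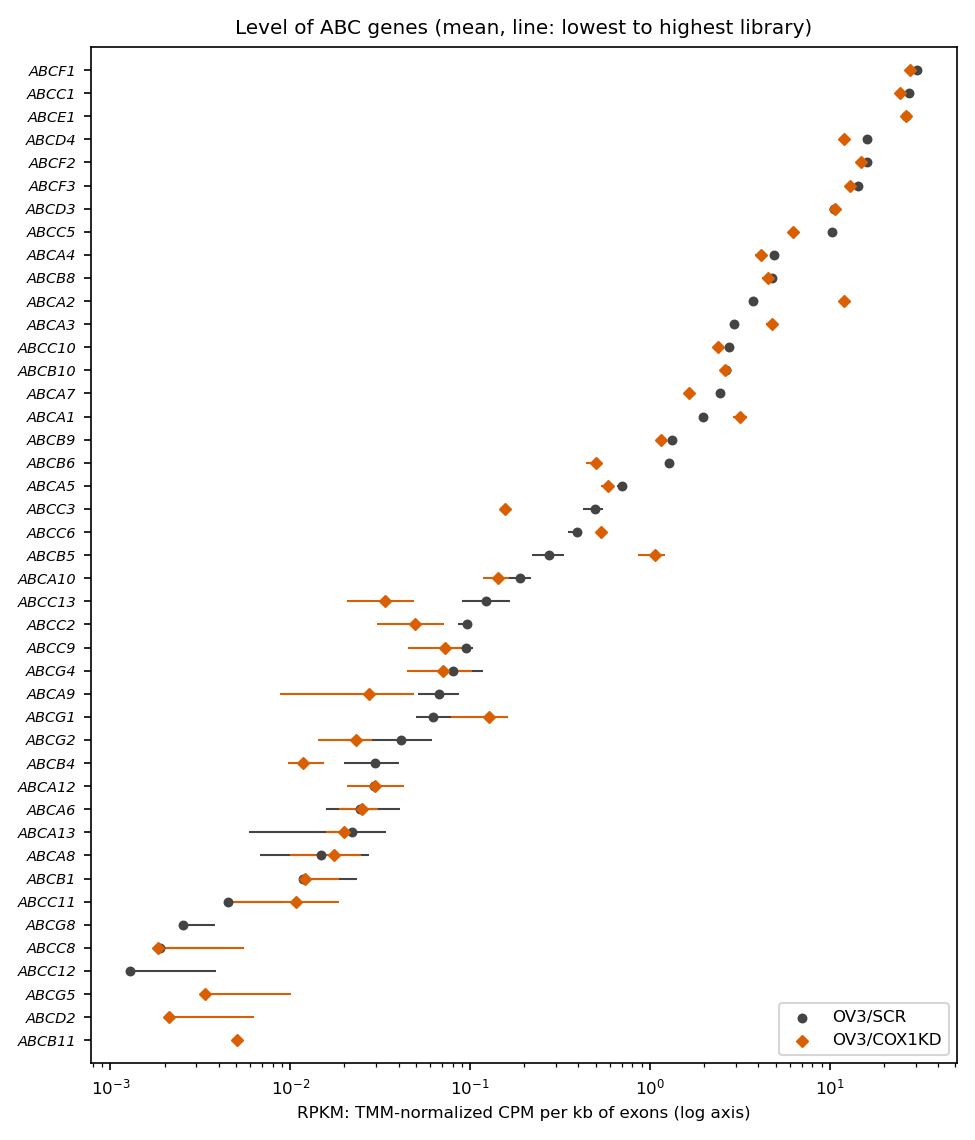
Mean level of the ABC genes reported singly in OV3/SCR (grey circles) and OV3/COX1KD (orange diamonds) cells as TMM-normalized CPM per kb of exons on a log axis, with lines from the lowest to the highest of 3 libraries and genes ordered by the OV3/SCR level. ABCF1 leads at 30.4 RPKM, ABCA2 stands out to the right in OV3/COX1KD at 12.1 RPKM, and libraries at 0 cannot be drawn, so ABCB11, ABCD2 and ABCG5 have no circle and ABCC12 and ABCG8 no diamond.

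Because each line was 1 clone, the tested genes within 1 Mb of the 4 largest changes were examined. Around ABCA2 there were 73 such genes, 27 called higher and 17 lower. Their log2 fold changes had a median of -0.027, and 2 rose by as much or more. ABCB5 had 10 tested neighbors, 5 called higher and 2 lower, with a median of 0.23 and none as large. ABCC3 had 28, 7 called higher and 6 lower, with a median of 0.072 and none as large. The 37 neighbors of ABCB6 had a median of -0.22, with 15 called lower and 7 higher, and 1 fell by as much or more. Over all tested genes 25.8% were called higher and 22.1% lower.

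Genes that work with the ABC proteins or regulate them were examined in 9 lists, in which 70 genes were called in all, each list to be read against the 47.9% of all tested genes that were called. Of the LXR and cholesterol efflux genes, 8 were called higher and 1 lower among 18 tested. The largest changes were rises of APOA1, the acceptor apolipoprotein of ABCA1, with a log2 fold change of 1.29 (SE 0.096, edgeR FDR = 6.6e-10), of SREBF1, an LXR target and lipogenic factor, by 0.87 (SE 0.029, edgeR FDR = 5.1e-15), and of MYLIP, a ubiquitin ligase for the LDL receptor, by 0.74 (SE 0.068, edgeR FDR = 1.5e-08). APOA1 was counted 113, 108 and 128 times in OV3/SCR and 265, 276 and 292 times in OV3/COX1KD replicates. ABCA1 and these 3 genes, all named for their change in these same libraries, were higher in every OV3/COX1KD library. Of all tested genes 63.2% show no overlap between the lines. Of the 18 tested, 9 were not called, among them APOE (log2 fold change 0.022, edgeR FDR = 0.64) and NR1H3 (0.0049, edgeR FDR = 0.95). The 1 called lower was NPC1 (-0.25, edgeR FDR = 1.1e-05). The list as a whole had a median log2 fold change of 0.077. With total count scaling it became -0.00050, with 5 called higher and 3 lower.

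Among transcriptional regulators of ABC genes, 9 of 18 tested were called higher and 3 lower, the largest changes being falls of FOXO1 (log2 fold change -0.93, SE 0.064, edgeR FDR = 2.1e-10), TFEB (-0.62, SE 0.17, edgeR FDR = 0.0036) and AHR (-0.40, SE 0.060, edgeR FDR = 1.2e-05). With total count scaling 6 of the regulators were called higher and 3 lower, and their median log2 fold change went from 0.15 to 0.070. The call of TFEB, the master regulator of lysosomal genes, was lost without OV3/SCR replicate 1 (edgeR FDR = 0.0256) or 3 (0.0274) or OV3/COX1KD replicate 3 (0.0229). Of the genes that handle cobalamin, 6 of 12 were called higher and 3 lower, with a median of 0.30. Its receptor subunits AMN and CUBN fell, with log2 fold changes of -1.41 (SE 0.23, edgeR FDR = 3.2e-05) and -1.28 (SE 0.33, edgeR FDR = 0.0026), while MMACHC, which processes cobalamin in the cytosol, rose by 0.52 (SE 0.093, edgeR FDR = 7.6e-05). CUBN had 21 to 27 counts in OV3/SCR and 5 to 13 in OV3/COX1KD libraries, and its call was lost without OV3/SCR replicate 3 (edgeR FDR = 0.0183) or OV3/COX1KD replicate 1 (0.0212) and in DESeq2 (adjusted p = 0.0105).

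Peroxisomal partners of the importers of subfamily D had 8 genes called higher and 2 lower among 19, led by rises of EHHADH (log2 fold change 0.94, SE 0.077, edgeR FDR = 2.6e-09), PHYH (0.64, edgeR FDR = 1.3e-07) and SCP2 (0.49, edgeR FDR = 6.1e-10), enzymes and a carrier of peroxisomal fatty acid oxidation. ABCD3 itself was not called, as given above. Of the heme and iron-sulfur partners of the mitochondrial and porphyrin transporters, 7 of 20 were called higher and 2 lower, the largest being UROS (0.46, edgeR FDR = 8.0e-07), ACO1 (0.42, edgeR FDR = 2.2e-08) and TMEM14C (0.40, edgeR FDR = 2.2e-08). With total count scaling the medians of these 2 lists went from 0.065 and 0.058 to -0.013 and -0.020, so neither median kept its sign under both scalings. The calls became 8 higher and 4 lower for the peroxisomal list and 4 higher and 3 lower for the heme and iron-sulfur list.

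Ribosome recycling and initiation partners of ABCE1 and ABCF1 had 4 genes called higher and 7 lower among 22, with a median of -0.012. With total count scaling they became 1 higher and 10 lower, with a median of -0.090. EIF2B2 fell by 0.43 on the log2 scale (edgeR FDR = 4.0e-08) and GCN1L1 fell by 0.27 (edgeR FDR = 8.4e-05), while EIF2AK4, the kinase GCN2, rose by 0.36 (edgeR FDR = 8.7e-07). Carriers of platinum and other drugs outside the family had 7 genes called higher and 1 lower among 17, led by rises of SLCO3A1 (log2 fold change 1.29, SE 0.049, edgeR FDR = 2.9e-14), ATP7A (0.96, SE 0.061, edgeR FDR = 6.7e-11), a copper-transporting ATPase, and SLC29A1 (0.57, SE 0.045, edgeR FDR = 1.5e-09), a nucleoside carrier. With total count scaling these carriers still had 7 called higher and 1 lower, while their median log2 fold change went from 0.086 to 0.0078. KCNJ11, the channel partner of ABCC8 and ABCC9, rose by 0.82 (SE 0.13, edgeR FDR = 1.9e-05) from between 66 and 85 counts to between 128 and 138 counts. Of the ABC proteins with other symbols, TAP1, a subunit of the peptide transporter of antigen presentation, fell, with 110, 122 and 121 counts in OV3/SCR and 63, 67 and 43 in OV3/COX1KD replicates and a log2 fold change of -0.99 (SE 0.16, edgeR FDR = 2.6e-05). TAP2 had a log2 fold change of -0.16 (edgeR FDR = 0.0312), and CFTR had at most 5 counts in any library.

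**Figure D4:**
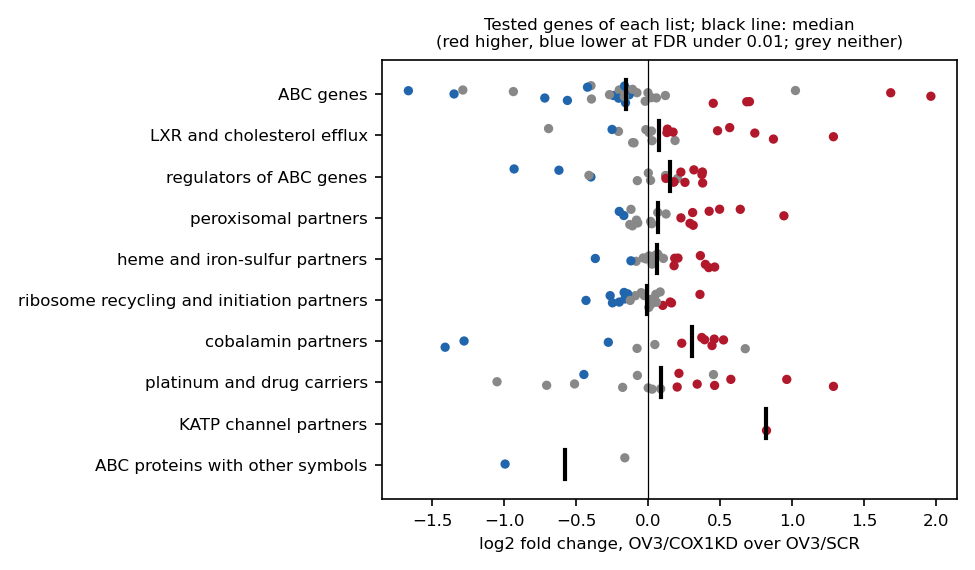
Each point is the log2 fold change of 1 tested gene, OV3/COX1KD over OV3/SCR, for the ABC genes and 9 lists of related genes, red where called higher, blue where called lower at an edgeR FDR under 0.01 and grey where neither, with a black line at the median. The ABC genes spread from -1.67 to 1.96 around a median of -0.16, and the medians of the lists with 12 or more tested genes lie between -0.012 and 0.30.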

How the data were processed

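RNA of 3 passages each of OV3/SCR and OV3/COX1KD cells was sequenced from TruSeq libraries. The deposited values are raw counts for 34811 genes, for which the authors used TopHat2 (alignment to hg19) and HTSeq (counting), and they tested them with DESeq2. The annotation and the strand setting of the counting are not given in the sources used here. Groups and replicate numbers came from the labels.

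The ABC genes, their grouping by role and the lists of related genes were chosen with earlier results of these data known, and the grouping after counts were seen. The counts were fitted with edgeR 4.0.16 under R 4.3.3 (TMM, filterByExpr, glmQLFit and glmQLFTest, condition only, Benjamini-Hochberg over all 17309 tested genes), and genes were called at an FDR under 0.01. Depth was 25291505 to 27391538 counts, and pairs of libraries within a line differed by 1.82 to 6.28 in chi-square per degree of freedom, the upper end coming from OV3/COX1KD replicate 2, in each case more than sampling noise, so none was a copy of another. Named were the ABC genes called past a log2 fold change of 0.5, the highest gene of each subfamily by level, the genes of subfamilies D to G, the 3 largest called changes of each related list and PTGS1. Other ABC genes are named to account for the members, and some, although included in all counts and medians, are not reported here singly. Lengths and overlaps came from GENCODE 44 on GRCh37, in which all 45 genes had an entry, and promoters from RefSeq on GRCh38.p14.

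Alternatives changed the scaling (RLE, or total counts alone), the filter (none, or a minimum of 10 counts per library), the test (DESeq2 1.42.0), the design (a block for the replicate number), the libraries (each left out in turn) and the length (the longest transcript). The edgeR fit with condition only was tested on simulated counts with known changes. The other steps were not tested in this way.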

Additional observations from a re-analysis of the deposited data

How the results depend on the processing

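Over the 12 other fits, 4 to 6 ABC genes were called higher and 8 to 15 lower, where the fit described above gave 5 and 10, and past a log2 fold change of 0.5 the counts were 4 to 5 higher and 4 to 6 lower. Of the comparisons of single ABC genes with those fits, 331 kept their side of the threshold, 21 lost a call and 15 gained one. No called gene changed direction. Some genes that were not called did, among them ABCA13, with a log2 fold change of -0.15 that became 0.30 without OV3/SCR replicate 2. Of the 15 genes called, DESeq2 kept 13 and total count scaling kept 14 and added 5, ABCA5, ABCA9, ABCB8, ABCB9 and ABCF2. Over all genes, DESeq2 called 7143 and edgeR 8293. The log2 fold change of PTGS1 lay between -0.53 and -0.41, and 60 to 75 genes of the related lists were called.

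The labels give replicates 1 to 3 in each line and say that 3 replicate pairs were harvested, but not that the number marks a pair. Same-numbered libraries deviated from their line's mean with correlations across genes of 0.0045, 0.042 and 0.0090. Between libraries of different number the correlations ran from -0.027 to 0.018. All were small, so the numbers were not taken to pair the samples. With the number as a replicate block 8233 genes were called, and of the ABC genes 4 were higher and 10 lower, 4 and 4 past a log2 fold change of 0.5, the call of ABCC6 being the 1 lost (edgeR FDR = 0.0112). With the block the log2 fold change of PTGS1 was -0.45, and 69 genes of the related lists were called.

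The depth left 14 of the 45 ABC genes untested, and 5 had 3 counts or fewer in every library. As each line was 1 clone, none of these alternatives bears on the spread between clones.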

Other observations

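The 4 motifs searched in the promoters were divided among the called genes as follows. Of the 4 ABC genes that rose past a log2 fold change of 0.5, 3 had a promoter entry, of which 2 held a GC box, none a CCAAT box, 1 a TATA box and 1 an E-box. The 4 that fell past that size also had 3 entries, of which 3 held a GC box, 2 a CCAAT box, 1 a TATA box and 1 an E-box. With so few promoters these counts are a description only.

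Beside ABCC6, the ABC genes whose longest transcript shared the most 50-base stretches with other genes were ABCE1 with 11.7% and ABCC9 with 8.65%, and all others shared 4.61% or less. The second ABCC6 pseudogene in the table, ABCC6P2, had 1 to 6 counts in each library.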
